A study of Arabidopsis with 8 samples.

Results

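The probes described here were called well above background in leaves of the Arabidopsis ecotype Sha and in no leaf sample of the ecotype Ler. A probe was taken when the scanner software had called it well above background on all 4 Sha arrays and on none of the 4 Ler arrays. Of 43572 non-control probes, 386 met this rule, and the 200 with the highest mean level over the Sha arrays were kept. The 386 made up 1.21% of the 31828 probes detected on all 4 Sha arrays. The mirrored rule found 213 probes in Ler only, 0.690% of the 30883 detected on all 4 Ler arrays.

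Sha (Shakdara) and Ler (Landsberg erecta) are inbred Arabidopsis accessions. Ler is a laboratory line that carries the erecta mutation, and the labels name no transgene in either. Seedlings were moved on day 10 to plates with 100 mM NaCl (Sha salt and Ler salt) or without added salt (Sha control and Ler control). RNA of pooled seedlings, which the study describes as leaf RNA, was taken 4 days later. Each of the 4 groups had 2 biological replicates, each on its own 1-colour (Cy3) Agilent array. Levels are given as log2 of the processed signal minus the 75th percentile of the same array, so that 0 is the 75th percentile and each step of 1 is a doubling of the signal.

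Accessions of Arabidopsis differ in single bases, in small deletions and in whole genes, and a short oligonucleotide probe loses signal both when a gene is silent and when its target sequence is changed or missing. Immune receptors, receptor-like kinases and enzymes of specialised metabolism are known as the gene groups that vary most in presence and sequence between accessions. Salt raises and lowers many leaf transcripts through abscisic acid and osmotic signalling, so a transcript found in one accession can be followed for its salt response in that accession alone.

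The arrays were of similar quality, with 76.1% to 79.2% of probes well above background in Sha and 72.7% to 76.5% in Ler. The array of Ler control replicate 1 was the dimmest, its 75th percentile standing 58.2 times above the local background against 83.4 to 136.7 times on the others. All 6 leaf marker genes were detected on all 8 arrays, as were 7 of 7 root and 5 of 5 flower markers. The 5 seed storage markers were each detected on all 4 Sha arrays but on only 2 of the 4 Ler arrays. Each slide carried one ecotype only, 2 slides per ecotype, so that slide and ecotype cannot be told apart in the Sha and Ler values below.

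Sha values stood far above Ler values, which the selection itself ensures. The mean Sha level of the 200 probes ran from 3.06 down to -5.37 with a median of -3.11, against a median of -1.06 for all probes detected on the 4 Sha arrays. Their Ler means lay between -9.63 and -7.31, close to the lowest signals an array called detected, which were -8.57 to -6.67. Only 20 probes lay above the 75th percentile in Sha, so most of these transcripts were of low signal. The gap between the lowest Sha and the highest Ler array was 0.94 at its smallest, 4.71 at the median and 11.43 at its largest.

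Because no Ler signal was called well above background, a Sha over Ler ratio is given only as a lower bound, taken against the higher of the Ler value and the lowest detected signal on each array. By that bound the signal in Sha was at least 18.2-fold higher at the median, with a range of at least 3.83-fold to at least 1313-fold, and 29 probes passed 100-fold. A less strict flag, signal positive and significant against background, was set on no Ler array for 110 of the 200 probes and on some Ler array for 90. The cut at 200 was not a natural break. The last 5 probes inside it had mean Sha levels of -5.27 to -5.37, and the first 5 outside it -5.37 to -5.42.

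Of the 200 probes, 137 could be matched to 127 gene loci of the RefSeq annotation and 63 could not. The unmatched probes carry accessions of expressed sequence tags, older transcript models or non-coding RNAs (6 probes). The study's own annotation placed 7 of them, among them 3 transposable element genes, 2 of a class it calls other RNA and 1 pseudogene. In all, 40 probes of 39 loci carried a gene name or description, and most of the other loci carry only a locus number, so their function is not given here.

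The brightest of the 200 was a probe for HSC70-1 (AT5G02500), a cytosolic heat shock cognate chaperone that folds proteins in unstressed and stressed cells. Its level was 3.39 and 3.27 in Sha salt and 2.80 and 2.78 in Sha control, against -9.85 and -9.41 in Ler salt and -8.71 and -8.65 in Ler control. The signal in Sha was at least 1313-fold higher. With salt it changed by 0.54 ± 0.15 on the log2 scale (limma SE, n = 2 arrays per group, adjusted p = 0.0183), short of the 2-fold limit used for a call here.

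The next brightest probe belonged to AT5G33251, described as a pseudogene, with 2.92 and 2.93 in Sha salt against 1.89 and 1.94 in Sha control. Its rise of 1.01 ± 0.24 (limma adjusted p = 0.00998) only just passed 2-fold, and it was 0.99 without Sha control replicate 1. AT3G61030, described by the study as a calcium- and lipid-binding C2 domain protein with a phosphatase-type domain, had 1.80 and 1.85 in Sha salt and 2.28 and 2.32 in Sha control. The study's table places this same probe at AT3G60950, a related locus number nearby, so which copy it reads is not settled. A probe the study assigned to AT3G44790 gave 1.1 and 0.97 in Sha salt, below the 2.87 and 2.84 of Sha control, and was called lower (-1.82 ± 0.24, limma adjusted p = 0.000868).

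Several bright probes had loci with numbers only. AT5G42850 had 2.68 and 2.43 in Sha salt against 1.27 and 1.14 in Sha control and was called higher (1.35 ± 0.27, limma adjusted p = 0.00519). AT5G45500 gave 1.42 and 1.46 in Sha salt and 2.34 and 2.49 in Sha control, groups that did not overlap but whose difference of -0.98 ± 0.52 was not called. AT2G27402 was the strongest salt response among the 20 highest loci, with -1.64 and -1.42 in Sha salt against 1.04 and 1.29 in Sha control (-2.70 ± 0.26, limma adjusted p = 0.000202). The loci AT3G44430, AT5G40500, AT4G02860, AT5G50665, AT1G22800, AT2G14285, AT2G01090 and AT3G60480, had salt changes between -0.70 and 0.91 and were not called.

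Of the 40 probes with a gene name or description, 8 were called higher and 8 lower with salt, and 24 were not called. Among all tested probes 14.8% were called higher and 16.2% lower. AT2G05830, named MTI1, is an enzyme of the methionine salvage cycle that recycles methylthioadenosine. It had 1.24 and 1.1 in Sha salt and 1.78 and 1.79 in Sha control, a difference of -0.62 ± 0.25 that was not called. The probe of emb2731, a gene needed for embryo development, read 0.44 and 0.28 in Sha salt and 0.51 and 0.37 in Sha control, so that its groups overlapped. PGLP2, a 2-phosphoglycolate phosphatase, and MSRB4, a methionine sulfoxide reductase that repairs oxidised proteins, changed by 0.34 ± 0.23 and 0.51 ± 0.49, neither of them called. AT2G17580 (AGS1), AT1G63130 (RPF6, an RNA processing factor) and the ubiquitin ligase LUL1 had salt changes of -0.05, 0.14 and 0.04. The probe of AT1G29790, listed as a cellulose synthase like gene, differed by 0.01.

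The Sha-only probes of UGE5, MSR2 and MGP4 were not called for salt. That of UGE5, an enzyme which interconverts UDP-glucose and UDP-galactose, read -2.03 and -2.09 in Sha salt and -2.25 and -2.35 in Sha control. The salt changes of MSR2, named for mannan synthesis, and of MGP4, named from a defect of the male gametophyte, were -0.70 ± 0.23 and 0.76 ± 0.25. MSR2 had 2 other probes, both detected in both ecotypes. The brighter changed by -0.89 ± 0.07 in Sha, under the 2-fold limit, and the dimmer was called lower in Sha (-1.20 ± 0.09, limma adjusted p = 8.14e-05). RMA1, a ring finger protein anchored in a membrane, and MAC5C, a subunit of the MOS4-associated complex that acts in RNA splicing and immunity, had changes of 0.79 ± 0.23 and 0.96 ± 0.12. Both lay under the 2-fold limit with groups that did not overlap, though MAC5C passed it without Sha control replicate 2 (1.04), without Sha salt replicate 1 (1.09) or with median scaling (1.04).

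The comparison of salt with control within Sha does not enter the rule that picked the probes and was tested across all 34660 probes detected in at least 1 group. All 200 probes were among those tested. With salt, 33 were called higher and 41 lower (limma, adjusted p under 0.05 and more than 2-fold), and 126 were not called. With normexp background correction on all 8 arrays, the same test called 2 higher and 0 lower, though 29 and 33 were more than 2-fold. The main counts are 16.5% higher and 20.5% lower, beside 14.8% and 16.2% of all tested probes and 12.9% and 15.3% of those detected on all 4 Sha arrays. The shares of the 200 were close to these or a little above them, and their median change was -0.05, near the -0.04 of all tested probes. Their median absolute change was 0.73, against 0.56 for the probes detected on all 4 Sha arrays.

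All 74 called probes had the same sign on both Sha slides, and in none did a salt array overlap a control array. By slide alone, 31 probes were more than 2-fold higher on both and 43 more than 2-fold lower on both. The replicate SD of the members was small, with a median of 0.09 in Sha salt and 0.07 in Sha control. Calls fell in both parts of the ranking, with more among the dimmer probes. The 100 brighter probes held 15 higher and 14 lower, and the 100 dimmer ones 18 higher and 27 lower. Only 3 higher and 1 lower fell among the top 20. Of all tested probes, 14.8% were called higher and 16.2% lower.

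In these leaf samples the summed level of the 7 root markers was lower with salt, at 0.57 to 0.67 in Sha salt against 3.55 to 3.60 in Sha control. In Ler the same sums were 1.26 to 1.30 with salt and 3.55 to 3.60 without. The 5 seed markers summed to -1.14 to -0.89 in Sha salt and -1.19 to -0.98 in Sha control, but to 0.62 to 0.69 in Ler salt and -6.62 to -6.35 in Ler control, the lowest of the 4 groups by far. The leaf marker sum was 8.03 to 8.39 in Sha salt and 8.43 to 8.84 in Sha control. The part of such tissue markers in the salt changes was not tested. In bulk RNA, fewer cells of a type and less RNA per cell cannot be told apart.

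The largest rise was at AT3G28600. It read -2.09 and -2.08 in Sha salt against -7.76 and -7.43 in Sha control, a change of 5.51 ± 0.28 (limma adjusted p = 1.49e-05), or 45.5-fold. The control arrays lay within the range of the lowest detected signals, so the transcript was barely measured without salt. A probe for an unmatched expressed sequence tag, EG511673, followed with -2.18 and -2.28 in Sha salt and -6.63 and -6.77 in Sha control (4.47 ± 0.24, limma adjusted p = 1.9e-05).

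AT2G12190 read -0.63 and -1.04 in Sha salt against -4.22 and -4.70 in Sha control, and was one of the 2 highest in Sha salt among the 8 largest rises (3.63 ± 0.30, limma adjusted p = 0.000108). AT2G25460 came close, with -0.77 and -0.92 in Sha salt and -4.04 and -3.90 in Sha control (3.12 ± 0.24). AT2G13770 rose by 3.47 ± 0.27, reading -3.36 and -3.46 in Sha salt against -6.76 and -7.01 in Sha control. In all 3 the replicates of a group lay much closer together than the groups did.

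NAC060 was the one transcription factor with a gene name among the large rises. It encodes a NAC domain protein known to dampen sugar and abscisic acid signalling in seedlings. Its level was -1.61 and -1.54 in Sha salt against -4.72 and -4.62 in Sha control (3.10 ± 0.40, limma adjusted p = 0.000747, 8.55-fold). On the Ler arrays it read -9.93 and -9.49 with salt and -8.81 and -7.54 without, at or near background in all.

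Receptor-like kinases and receptor-like proteins sit in the plasma membrane and pass signals of pathogens and stress into the cell. By gene name they supplied 4 of the 200 probes, from CRK14, CRK4 and RLP33, or 2% beside 0.626% of all tested probes (217 probes). All 4 were called for salt, 3 higher and 1 lower, beside 14.8% higher and 16.2% lower of all tested probes. These 4 are only the probes whose names held the words searched. Loci with a number only were not sorted, so the calls do not describe the family as a whole. Both CRK14 probes rose alike. One read -1.48 and -1.47 in Sha salt against -4.32 and -4.24 in Sha control (2.81 ± 0.26, limma adjusted p = 0.000183), and the other -1.80 and -1.77 against -4.41 and -4.49 (2.67 ± 0.15).

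RLP33, a receptor-like protein without a kinase domain, rose by 3.63 ± 0.22 (limma adjusted p = 2.95e-05), with -2.57 and -2.50 in Sha salt against -6.10 and -6.23 in Sha control. CRK4, of the same cysteine-rich kinase family as CRK14, moved the other way. It fell to -7.10 and -7.25 in Sha salt, against -2.76 and -2.80 in Sha control (-4.39 ± 0.24, limma adjusted p = 1.99e-05). The difference between CRK14 and CRK4 in direction is larger than any spread between replicates of either.

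GLR2.1, a glutamate receptor-like channel, read -6.01 and -6.24 in Sha salt against -4.03 and -4.23 in Sha control and was called lower (-1.99 ± 0.25, limma adjusted p = 0.000724).

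Cytochrome P450 enzymes oxidise hormones, pigments and defence compounds. By gene name 2 of them, CYP71B37 and CYP71B20, were among the 200, or 1% beside 0.721% of all tested probes. Loci with a number only were not sorted, so further members of this family may be among them. CYP71B37 fell to -2.97 and -2.94 in Sha salt, against -0.21 and -0.12 in Sha control (-2.79 ± 0.27, limma adjusted p = 0.000198). CYP71B20 read -3.61 and -3.65 in Sha salt and -2.68 and -2.72 in Sha control, a difference of -0.93 ± 0.26 under the 2-fold limit. Among the other described enzymes, AT3G45070, a sulfotransferase named SULT202B1, fell to -4.62 and -4.64 in Sha salt, against -1.94 and -1.86 in Sha control (-2.73 ± 0.24). The probe for AT1G48800, described as a terpenoid cyclase, read -4.02 and -4.27 in Sha salt against -2.49 and -2.75 in Sha control (-1.52 ± 0.25). AT4G34930, described as a phospholipase C-like phosphodiesterase, fell by 2.45 on the log2 scale, with -4.39 and -4.24 in Sha salt against -1.87 and -1.86 in Sha control.

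UGT88A1, a glycosyltransferase that attaches glucose to small molecules, was called higher by its Sha-only probe and lower by 2 brighter probes described further on. The Sha-only probe read -1.20 and -1.28 in Sha salt against -2.79 and -2.70 in Sha control (1.51 ± 0.25, limma adjusted p = 0.00231). By the words searched in gene names, UGT88A1 was the only glycosyltransferase found among the 200 (0.5%), beside 105 such probes tested (0.303%). Enzymes whose names lack these words were not counted.

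The 3 transposable element genes differed among themselves. AT4G04293 had the largest fall of all 200, to -5.96 and -6.00 in Sha salt, against -1.41 and -1.33 in Sha control (-4.61 ± 0.26, limma adjusted p = 2.16e-05, 24.5-fold). AT2G28980 rose by 3.45 ± 0.25, with -2.50 and -2.43 in Sha salt against -5.82 and -6.01 in Sha control. The third, AT4G06627, gave -3.04 and -3.53 in Sha salt and -3.45 and -3.73 in Sha control, overlapping groups with a difference of 0.30 ± 0.55. Such a description was carried by 1.5% of the 200 and by 0.121% of all tested probes (42), a background that is a low estimate because the descriptions come from the study's lists of selected probes.

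Of the 6 non-coding RNA probes, 1 was called higher and 2 lower, beside 14.8% higher and 16.2% lower of all tested probes. The 6 made up 3% of the Sha-only probes kept, beside 1.09% of all tested probes (378 probes). AT2G13665 rose by 1.12 ± 0.26, with 1.21 and 1.01 in Sha salt against 0.02 and -0.05 in Sha control, a call lost without Sha salt replicate 1 (limma adjusted p = 0.0504). NR_023190 fell to -4.91 and -5.04 in Sha salt, against -3.0 and -3.04 in Sha control (-1.96 ± 0.24). AT4G15242, the brightest of them, was at 1.81 and 1.65 in Sha salt and 1.06 and 0.97 in Sha control, short of a call (0.72 ± 0.28). By the words searched in gene names, no member was placed in the F-box, MADS-box, glucosinolate, pathogenesis-related or cold-regulated groups. Such names were carried by 38, 100, 65, 38 and 104 of the tested probes. Genes whose names lack these words and loci with a number only were not counted, so members of these groups may be among them.

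Other large falls were at loci without a gene name. Both probes of AT4G14650 fell, one to -5.64 and -5.36 in Sha salt, against -2.45 and -2.29 in Sha control (-3.13 ± 0.32), and the other changed by -2.99 ± 0.55. The probe NM_001161047 fell to -6.00 and -6.15 in Sha salt, against -2.77 and -3.23 in Sha control (-3.07 ± 0.27). AT4G02850 fell to -2.67 and -2.88 in Sha salt, against 0.04 and -0.04 in Sha control (-2.78 ± 0.21), and AT1G55380 to -5.39 and -5.38 in Sha salt, against -2.67 and -2.55 in Sha control (-2.78 ± 0.63). The wide error of AT1G55380 comes with dim Ler arrays, which read from -10.03 to -7.98 and enter the shared fit. Limma's median SE was 0.25 for the 200 probes, 0.11 for all tested probes and 0.10 for the 200 when the 4 Sha arrays were fitted alone.

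Further rises above 4-fold came from loci without a gene name. AT1G31750 rose by 2.99 ± 0.24, AT5G28000 by 2.80 ± 0.14, AT1G74450 by 2.53 ± 0.25 and AT1G28040 by 2.36 ± 0.18. AT1G66760 rose by 2.06 ± 0.10 by its Sha-only probe, and its other probe, present in both ecotypes, by 2.67 ± 0.08 in Sha and 2.82 ± 0.08 in Ler. The unmatched transcript models NM_001125470 and NM_202290 rose by 2.54 ± 0.37 and 2.07 ± 0.24. All of these had limma adjusted p of 0.00136 or below.

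The remaining falls beyond 4-fold also came from loci without a gene name, which the word search placed in no family. AT3G46370 changed by -2.75 ± 0.35, AT5G43540 by -2.50 ± 0.17, AT2G28990 by -2.34 ± 0.24 and AT2G02630 by -2.34 ± 0.17. At AT5G23830 both probes fell, one to -2.14 and -2.36 in Sha salt, against 0.03 and -0.31 in Sha control. AT5G05890, AT1G43020 and AT4G16807 had changes of -2.16 ± 0.24, -2.16 ± 0.27 and -2.03 ± 0.45. The slides of AT4G16807 differed more than most, with -2.58 on one and -1.49 on the other.

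CDKB1;2, a cyclin-dependent kinase of the mitotic cell cycle, was at -5.56 and -6.40 in Sha salt and -3.96 and -4.51 in Sha control. The groups did not overlap, and the difference of -1.74 ± 0.72 was not called (limma adjusted p = 0.0752). In the limma fit of the 4 Sha arrays alone it was called (limma adjusted p = 0.0175). FRL2, a relative of the flowering time gene FRIGIDA, was at -3.05 and -2.96 in Sha salt and -2.54 and -2.67 in Sha control, a difference of -0.40 ± 0.39. PP2-B10, named for phloem protein 2, differed by -0.53 and was not called.

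At 10 loci 2 probes each were among the 200, and they gave a second reading of the same gene. Their salt changes differed by 0.01 at AT5G23830, where they were -2.11 and -2.12, and by 0.14 at CRK14. The largest differences were 0.70 at AT5G41740 and 0.61 at AT5G27010, neither locus being called by either probe. At AT3G61010 one probe was called lower (-1.0 ± 0.18) and the other was not (-0.57 ± 0.26), 0.43 apart. The first was -0.99 without Sha control replicate 1 and -0.86 without Sha salt replicate 1, under 2-fold in both. No pair was called in opposite directions. The 3 probes of the unmatched transcript AK228717 had changes between -0.55 and 0.28.

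The array held probes for some of the same genes that were not among the 200. This was so at 42 of the 127 loci, with 63 other probes, while 85 loci had none. Since second probes seen brightly in Sha only are themselves among the 200, what follows on detection in Ler is a description. Of the 63, 4 met the rule but were too dim to be kept. At 32 of the 42 loci another probe (49 probes in all) was well above background on all 4 Ler arrays, and at 36 on at least 1. At 6 loci the other probes were detected on no Ler array, and at 3 of these on no Sha array either.

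Detected on all 8 arrays were 48 other probes at 31 loci. Their Sha minus Ler difference had a median of 0.13 and a range of -2.82 to 5.14, and 33 of the 48 were within 2-fold. Of the other 15, 10 were more than 2-fold higher and 5 more than 2-fold lower in Sha. By the brightest such probe of each locus, 22 of 31 loci were within 2-fold of each other in the 2 ecotypes. These values are descriptions, since the loci were chosen on the same contrast.

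HSC70-1 was the clearest case of such a difference between probes. Its 7 other probes were detected on all 8 arrays. The brightest read 5.15 and 5.08 in Sha salt and 4.90 and 4.78 in Sha control, against 5.16 and 5.10 in Ler salt and 4.83 and 4.82 in Ler control. The 7 probes differed between Sha and Ler by -0.62 to -0.00, all within 2-fold. The gene was thus read in both ecotypes by 7 probes and in Sha only by 1. Probe sequences were not used here, and HSC70-1 has close relatives in the genome, so which copy each probe reads is not settled.

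PAI1, phosphoribosylanthranilate isomerase of tryptophan synthesis, had a Sha-only probe at -4.62 and -5.08 in Sha salt and -4.48 and -5.07 in Sha control, with overlapping groups. Its 3 other probes read between -0.37 and 1.25 in Sha and between -0.28 and 1.21 in Ler. PAI genes are known to occur in near-identical copies whose number varies between accessions, so these probes may not all read one copy. UGE5 was likewise read at 2.18 and 2.00 in Sha salt and -0.58 and -0.57 in Sha control by its other probe, against 2.22 and 2.12 in Ler salt and -0.29 and -0.45 in Ler control. That probe rose by 2.66 ± 0.10 with salt in Sha (limma adjusted p = 4.21e-06), while the Sha-only probe changed by 0.24 ± 0.25.

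At other loci the second probe also stood higher in Sha. For AT4G02850 it read -1.20 and -1.19 in Sha salt and 1.52 and 1.68 in Sha control, against -6.47 and -6.47 in Ler salt and -2.82 and -2.72 in Ler control. That probe was lower with salt in both ecotypes, with log2 changes of -2.80 ± 0.08 in Sha and -3.70 ± 0.08 in Ler. For AT4G01130 the second probe averaged -1.20 in Sha and -6.07 in Ler. RLP33 had another probe at -2.40 and -2.17 in Sha salt and -5.74 and -5.65 in Sha control, against -6.85 and -6.26 in Ler salt and -8.79 and -9.44 in Ler control. That second probe was detected in Ler only with salt. Its log2 change with salt was 3.40 ± 0.27 in Sha and 2.56 ± 0.27 in Ler, a difference that was not called.

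PP2-B10 showed how probes of one locus can go opposite ways. One other probe averaged -1.49 in Sha and -6.62 in Ler, the other -4.39 in Sha and -1.57 in Ler. CDKB1;2 was higher in Sha by its other probe too (-1.75 in Sha and -3.88 in Ler). That probe fell with salt in both ecotypes, with changes of -1.83 ± 0.13 in Sha and -1.17 ± 0.13 in Ler. FRL2 was read at -3.77 in Sha and -3.65 in Ler by its other probe, with overlapping arrays.

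For the salt response in Sha, the 48 other probes give further readings of the same loci. A member call stood beside 12 of them, and 6 had the same call. Among these, AT5G42850 rose by 1.25 ± 0.16 by its other probe and CYP71B37 was lower by its other probe (-2.92 ± 0.08). UGT88A1 went the opposite way by 2 probes. They read 1.88 and 1.96 in Sha salt against 2.90 and 2.94 in Sha control (-1.0 ± 0.08, limma adjusted p = 9.53e-05), and 0.72 and 0.86 against 1.89 and 2.04 (-1.17 ± 0.09), while the Sha-only probe had risen by 1.51.

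Among the same 48 probes the salt response differed between Sha and Ler at 8 (limma interaction, adjusted p under 0.05 and more than 2-fold), beside 6.55% of all tested probes detected on all 8 arrays and 9.09% of all tested probes. PAI1 supplied 3 of these 8 probes, so they are not 8 separate genes. For PAI1 all 3 other probes had negative salt changes in Sha and positive ones in Ler. The largest difference read -0.02 and -0.04 in Sha salt and 1.25 and 1.17 in Sha control, against 0.44 and 0.33 in Ler salt and -0.28 and -0.28 in Ler control. The responses of that probe differed by -1.90 ± 0.10 (limma adjusted p = 0.000516).

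The loci were spread over all 5 chromosomes. Chromosomes 1 to 5 held 33, 21, 21, 23 and 29 of the 127 loci. As shares these were 26.0%, 16.5%, 16.5%, 18.1% and 22.8%, beside 26.5%, 15.3%, 19.6%, 15.2% and 23.4% of all tested loci. In gene order along the array's annotated loci, 21 of the 127 were direct neighbours of another, in 10 runs. Within 5 loci of another lay 23, and for the Ler-only loci chosen in the same way it was 20 of 117.

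On chromosome 3 a run of 3 loci (AT3G61010, AT3G61028 and AT3G61030) lay not far in number from the pair AT3G60940 and AT3G60960. Salt changes within it were mixed. AT3G61028 rose by 1.57 ± 0.24, with -4.47 and -4.49 in Sha salt against -6.05 and -6.05 in Sha control, and AT3G60940 rose by 1.35 ± 0.43. AT3G60960 differed by -0.67 and was not called, and both AT3G61010 and AT3G61030 had negative values, as above. The call of AT3G60940 was lost when any 1 Sha array was left out, with limma adjusted p between 0.0932 and 0.106.

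On chromosome 4, AT4G02850 fell by 2.78 on the log2 scale while its neighbour AT4G02860 had a change of 0.76 ± 0.25 and was not called. AT4G01920 fell by 1.24, beside -0.75 for AT4G01915 and 0.07 for AT4G01930, neither called. On chromosome 5, AT5G59650 fell by 1.57 while both probes of AT5G59660 read changes of -0.00 and 0.01. The pairs AT1G29790 and AT1G29800, AT2G02690 and AT2G02700, AT5G45500 and AT5G45510, and AT5G52070 and AT5G52090 held no called probe. In AT3G16740 and AT3G16750 the first was called higher (1.05 ± 0.24) and the second was not (-0.44).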

How the data were processed

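Per the file headers, the authors scanned 8 1-colour Cy3 Agilent arrays and extracted spot intensity with Agilent Feature Extraction 10.7.1.1, which corrects background and detrends within an array and puts no common scale on different arrays. A deposited table of the whole series repeated the same values for all 8 arrays. No genome build of the probes is used here. Of 43603 non-control probes, 31 with outlier spots were left out, and none was saturated. Log2 of the processed signal minus the 75th percentile of the array was fitted with limma 3.58.1 (R 4.3.3), over 4 groups of 2 arrays. Tested were 34660 probes, those that both arrays of some group had well above background. Calls needed more than 2-fold and an adjusted p under 0.05 (Benjamini-Hochberg, across the 34660). The fit was tested on simulated data with known changes. With 2 arrays per group, the number of arrays limits the precision.

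The lower bounds of Sha over Ler set each Ler value to the higher of itself and the lowest signal called well above background on that array. Probe accessions were matched to loci through a RefSeq gene table (TAIR10.1), which placed 34263 probes at 25374 loci. Descriptions of 15 members came from the study's supplementary lists. Neighbours are steps along the loci on the array. The families were words searched in gene names. The members and lists were chosen with earlier results of these data known.

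The text names the 20 loci with the brightest members, the 8 largest rises and falls, the leading members of each family, loci with several probes or a neighbouring member, a few genes of known salt or flowering lists and, chosen after their values were seen, members with a gene name and further called members. Same-numbered salt and control arrays of Sha shared a slide and a scan day, and their deviations from the group means correlated at 0.470 (0.207 in Ler). The replicate block is therefore also a slide block. The values of 1 member are not reported here.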

Additional observations from a re-analysis of the deposited data

Results flagged for a closer look

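At 8 of the 48 other probes at the Sha-only loci, the salt response in Sha differed from that in Ler by limma's interaction test (adjusted p under 0.05 and more than 2-fold). Of all tested probes detected on all 8 arrays, 6.55% did so. Some of the 8 read the same locus, so they are not 8 separate genes. For PAI1 the 3 probes differed by -1.56, -1.71 and -1.90 on the log2 scale, Sha response minus Ler response. For AT5G24760 the differences were -1.26 and -1.31, and for CYP71B37 -2.04, where salt changed the probe by -2.92 ± 0.08 in Sha and -0.88 ± 0.08 in Ler. AT4G01130 differed by 1.93, with 1.39 ± 0.08 in Sha and -0.55 ± 0.08 in Ler. AT5G20450 differed by 1.05, with 0.55 ± 0.14 in Sha and -0.50 ± 0.14 in Ler, and its Sha-only probe was called lower with salt (-1.20 ± 0.24). With each array left out in turn, the number of such calls was 7 to 9.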

How the results depend on the processing

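The main counts of 33 higher and 41 lower moved most with the background correction. With normexp on all 8 arrays limma called 2 higher and 0 lower, though 29 and 33 were more than 2-fold, 9 and 6 of them at an unadjusted p under 0.05. The median SE was then 0.95 in place of 0.25. Fitted on the 4 Sha arrays alone, an alternative chosen after seeing the data, normexp gave 29 higher and 33 lower. The 100 highest probes held 15 higher and 14 lower, and all 386 probes that met the rule held 56 higher and 57 lower, with a median change of 0.0612. With the replicate block, which is the slide and scan day block, 32 were higher and 43 lower, and the calls of AT3G60940 (adjusted p = 0.0658 by limma) and NP307442 were lost while CDKB1;2 gained one. Leaving out 1 array gave 28 to 34 higher, 38 to 43 lower and a median of -0.11 to 0.01. The number of Sha-only probes before the 200 were kept was then 389 to 510, and it was 286 where the less strict flag took the place of the stricter one. Of 127 probes named or called, 74 were called and 53 were not. In all 16 alternatives without normexp, 114 of the 127 stayed called or stayed not called. Of the 74 calls, 13 were lost with normexp on the Sha arrays alone and 72 with normexp on all arrays. None of the 127 changed sign as a call. AT3G61010 (second probe) fell under 2-fold with quantile (-0.92) and median scaling (-0.92), and MAC5C passed it with median scaling (1.04). Because no Ler signal was called well above background, the Sha over Ler ratios stay lower bounds.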
